A study of Mus musculus with 167 samples.

Results

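The interferon response genes described here are a fixed list of 42 mouse genes that type I or type II interferons are known to induce. They were listed by name, with earlier results of these data known. Of the 42, 40 have a row among the 39179 gene IDs of the deposited liver tables. Gbp5 and Gbp6 could not be matched to a row and are not analysed here. The members fall into 5 roles: 4 sensors of foreign nucleic acid, 4 transcription factors, 17 antiviral effectors and genes of the ISG15 system, 12 interferon-gamma-inducible GTPases (10 with values) and 5 genes of the immunoproteasome and peptide transport. All 40 passed the filter on low counts in each of the 31 comparisons, and the lowest count of any member in any library was 15.

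The study sequenced polyA RNA from liver of C57BL/6 mice that were wild type or heterozygous for a knock-in allele of Htt, the Huntington's disease gene, with 20, 80, 92, 111, 140 or 175 CAG repeats (the lines Q20, Q80, Q92, Q111, Q140 and Q175). Mice were 2, 6 or 10 months old. Each of the 21 groups of genotype and age held 8 libraries, 4 of each sex, except that Q80 had 3 females and 5 males at 2 months and 4 females and 3 males at 10 months. The wild-type mice were, per the labels, housed with Q20 mice. Q20 carries the knock-in allele with the shortest repeat and is the control for the longer ones. Females are named F1 to F4 and males M1 to M5 after the replicate numbers of the labels, which do not say whether libraries came from separate animals, so p-values measure the spread between these libraries.

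Interferons are secreted proteins, and cells release those of type I on sensing virus or other foreign nucleic acid. Type I interferons act on genes whose promoters hold the interferon-stimulated response element (ISRE), which a complex with STAT2 and IRF9 binds, and interferon-gamma acts on genes with the gamma-activated site (GAS). In the liver, both hepatocytes and resident macrophages (Kupffer cells) express such genes, and part of the set is held at a low level without infection.

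Library totals ran from 32025244 to 57151736 expected counts, with a median of 38663519. Levels are given as CPM (expected counts scaled to a common library size with TMM normalization) or, where genes are compared with each other, as FPKM, which divides by gene length. The summed level of 6 hepatocyte markers ran from 60670 to 144100 CPM. Htt, the targeted gene, averaged 31.6 CPM ± 2.71 (SD, n = 8) in Q20 and 21.2 ± 0.993 (SD, n = 8) in Q175 at 6 months. The Q80 library M5 at 2 months, labelled male, had 0 CPM summed over 4 Y-linked genes (Uty, Kdm5d, Eif2s3y and Ddx3y) where the other males of that age had at least 134 CPM. The second field of its library name is shared with the 3 Q80 females. Results on sex at 2 months use the libraries as labelled, and the counts and the leading genes are also given without it. At 6 months the library names of the knock-in lines are built differently from those of the wild type and of the other ages, so Q20 and wild type at 6 months cannot be told apart from these 2 series of libraries.

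Promoters show how the members relate to these factors. The RefSeq promoter table (GRCm38.p6, 250 bases before to 50 after the start of transcription) held 32 of the 42 members, Gbp5 among them. The letters of the ISRE, GAAANNGAAA on either strand, were present in at least 1 promoter of 19 of the 32. Counted per promoter, since 4 members have more than 1, they were in 19 of 36 member promoters (52.8%), against 3.44% of all 32851 promoters of the same length. The letters of the GAS, TTCNNNGAA, which read the same on both strands, were present for 10 of the 32 members, in 10 of 36 member promoters (27.8%), against 8.3% of all promoters. Both were present for 7 members and neither for 10. By role, ISRE letters were found for 8 of 13 antiviral genes, 8 of 9 GTPases, 2 of 2 sensors, 1 of 4 transcription factors and 0 of 4 immunoproteasome and transport genes.

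The 60-base stretches below are printed on the gene's own strand, 5′ to 3′, with the matched letters in capitals. The first set carries ISRE letters and belongs to members whose levels are described below as differing by sex or between alleles.
Oas3, chr5:120777690-120777749, minus strand: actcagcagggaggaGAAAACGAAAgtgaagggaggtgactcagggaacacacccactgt
Rsad2, chr12:26456528-26456587, minus strand: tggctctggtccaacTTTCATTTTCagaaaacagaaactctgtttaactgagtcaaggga
Isg15, chr4:156200852-156200911, minus strand: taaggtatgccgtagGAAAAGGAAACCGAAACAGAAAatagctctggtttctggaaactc
Ifit1, chr19:34640770-34640829, plus strand: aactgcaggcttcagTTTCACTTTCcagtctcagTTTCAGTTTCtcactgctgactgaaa
Gbp2, chr3:142620589-142620648, plus strand: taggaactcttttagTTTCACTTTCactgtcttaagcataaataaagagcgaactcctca
Gbp3, chr3:142559984-142560043, plus strand: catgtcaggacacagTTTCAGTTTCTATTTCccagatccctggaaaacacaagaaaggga
The second set shows 3 GTPase genes of chromosome 11 in which the GAS letters come first and the ISRE letters begin 11 bases after the start of the GAS, and Irf1, which has GAS letters alone.
Tgtp1, chr11:48992290-48992349, minus strand: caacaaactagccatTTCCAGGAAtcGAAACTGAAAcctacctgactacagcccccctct
Igtp, chr11:58199496-58199555, plus strand: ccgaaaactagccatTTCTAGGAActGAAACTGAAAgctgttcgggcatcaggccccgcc
Irgm2, chr11:58214887-58214946, plus strand: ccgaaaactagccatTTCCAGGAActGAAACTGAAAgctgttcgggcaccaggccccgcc
Irf1, chr11:53769909-53769968, plus strand: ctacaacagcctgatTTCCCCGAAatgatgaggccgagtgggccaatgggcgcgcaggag
A match to these letters is a description of the window and not a measured binding site.

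Per length, the members spanned a wide range in liver. Bst2, tetherin, which holds budding virus at the cell surface, had the highest median level over all libraries, 113 FPKM. Iigp1, an immunity-related GTPase that attacks the vacuoles of intracellular parasites, followed with 95.0 FPKM. Irgm1, a regulator of the same GTPases, had 23.9 FPKM, Psmb10, an inducible catalytic subunit of the immunoproteasome, 22.02 FPKM and Psmb8, another such subunit, 18 FPKM. The transcription factors lay between 11.47 FPKM (Irf9) and 15.4 FPKM (Irf7, the factor that amplifies type I interferon production). At the low end, Ifit2, of the family that binds viral RNA, had 0.935 FPKM and Oas3, an enzyme that makes the second messenger for RNase L, 0.289 FPKM. No member was at 0 in any library. The spread between libraries was unequal: the highest CPM was 1.84 times the lowest for Irf9, 2.26 times for Bst2, 14.6 times for Gbp2 and 42.4 times for Tgtp1.

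Labelled sex separated these genes more than repeat length or age did in the number of members past the threshold. At 2 months 29 members were higher and 3 lower in females (edgeR's quasi-likelihood test with genotype in the model, Benjamini-Hochberg adjusted p below 0.05 over all genes tested). The same counts were 29 and 3 at 6 months, and 30 and 1 at 10 months. Many genes of liver differ by sex: 29.8% of all genes tested were higher and 27.7% lower in females at 2 months, 31.4% and 29.5% at 6 months, and 30% and 27.2% at 10 months. Over the 40 members the median log2 difference, females minus males, came to 0.34, 0.57 and 0.59 at the 3 ages in turn, against 0.01, 0.01 and 0.02 for all genes tested. The mean of females was above that of males in every one of the 7 genotypes for 23 of the 40 members at 2 months, 26 at 6 months and 29 at 10 months. The share of all genes with such a pattern was not counted. Without the library M5, 29 members were again higher and 3 lower at 2 months, the same 32 genes, where 30% of all genes tested were higher and 28.7% lower, and 23 members had the higher mean in females in 7 of 7 genotypes.

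The GTPases held the largest sex differences. Gbp3 (chromosome 3, 142560026 to 142573209, GRCm38), a guanylate-binding protein that coats intracellular pathogens, ranged at 6 months from 9.15 to 26.0 CPM in the 28 female libraries, with a median of 15.2. In the 28 males of that age it ranged from 2.70 to 9.03 CPM, with a median of 4.501. Every female library was therefore above every male library. At 10 months the 28 females had 8.79 to 22.2 CPM (median 15.2) and the 27 males 2.76 to 7.20 CPM (median 4.14), again without overlap. At 2 months the females had 9.28 to 23.4 CPM (median 16.97). The males had 3.51 to 17.4 CPM (median 5.52), where the highest was the Q80 library M5 and the next 9.45 CPM. The log2 difference was 1.52 ± 0.11 (SE) at 2 months, 1.86 ± 0.09 at 6 months and 1.84 ± 0.08 at 10 months (edgeR adjusted p = 2.18e-17, 4.19e-24 and 9.97e-26), and 1.59 at 2 months without the library M5.

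Gbp2, another guanylate-binding protein, had medians of 9.37, 9.34 and 9.68 CPM in females and 4.31, 3.27 and 3.14 CPM in males at 2, 6 and 10 months. Its ranges overlapped at 2 and 6 months, with males up to 8.69 CPM (the library M5) and 15.3 CPM (Q140 male M3) above the lowest females at 5.95 and 4.08 CPM. At 10 months they overlapped from 5.72 CPM, the lowest female, to 6.14 CPM, the highest male. Its log2 differences were 1.17 (1.20 without M5), 1.55 and 1.65. Gbp7, of the same family, differed by 0.75, 1.11 and 1.07, and at 6 months it ran from 17.9 to 44.2 CPM in females and from 7.24 to 26.4 CPM in males, so the ranges overlapped through the Q140 male M3. Igtp, an immunity-related GTPase, differed by 0.93, 1.01 and 1.26, and Tgtp1, a T cell-specific GTPase gene, by 0.73, 1.01 and 1.58. Igtp and Irgm2 overlap on the same strand of chromosome 11, and Tgtp1 has a near-identical copy, Tgtp2, so the split of reads between these is uncertain.

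The GTPases did not all follow this direction. Irgm1 had a log2 difference of 0.00 at 2 months and 0.01 at 6 months, short of the threshold, and rose in females by 0.20 at 10 months. Iigp1, the most abundant GTPase per length, rose by 0.16 at 2 months and had 0.08 and 0.05 at the later ages, both short of it. Ifi47, also an immunity-related GTPase, was lower in females by 0.43 at 2 months and by 0.46 at 6 months, and had -0.08 at 10 months, not past the threshold. At 6 months it ran from 7.597 to 28.2 CPM in females (median 14.02) and from 7.83 to 49.6 CPM in males (median 21.2), so the ranges overlapped widely.

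**Figure D1:**
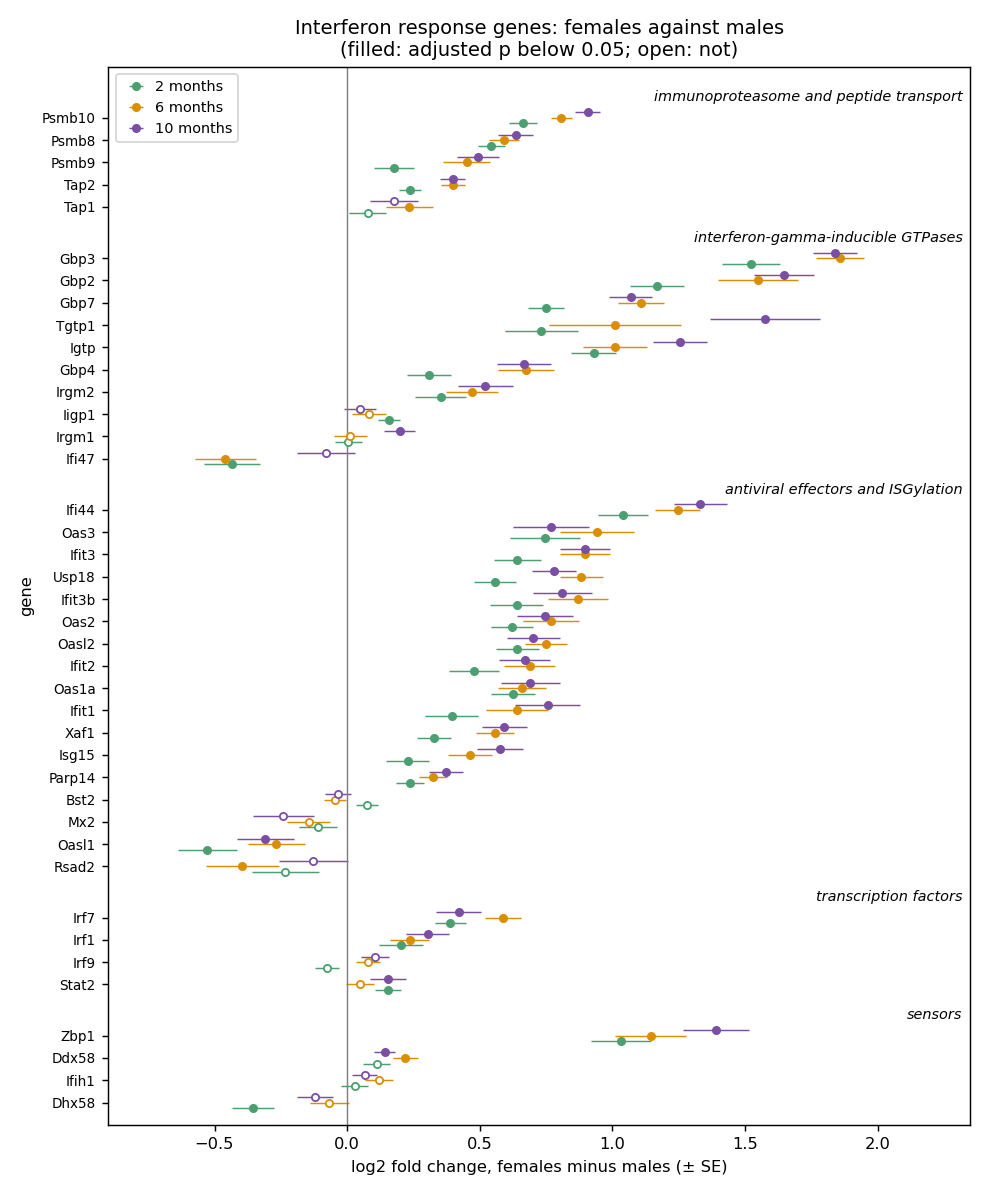
Log2 fold change of females over males (x axis, ± SE) for the 40 measured members (y axis, grouped by role) at 2, 6 and 10 months. Filled points passed the threshold of 0.05 on the adjusted p and open points did not; most points lie right of 0, with Gbp3 farthest at 1.86, and Oasl1 lies left of 0 at the 3 ages.

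Among the antiviral effectors 13 of 17 rose in females at each age. Ifi44, an interferon-induced protein that limits viral replication, had medians of 5.02, 4.84 and 4.56 CPM in females against 2.48, 1.98 and 1.82 CPM in males at 2, 6 and 10 months. Its log2 differences were 1.04 (1.05 without M5), 1.25 and 1.33. At 6 months the females' range, 2.67 to 8.38 CPM, met that of the males, 1.47 to 3.24 CPM, so the groups overlapped. Usp18, the protease that removes ISG15, rose by 0.56, 0.88 and 0.78, and Ifit3, of the family that binds viral RNA, by 0.64, 0.90 and 0.90. The OAS enzymes Oas1a, Oas2 and Oas3, the other IFIT genes and Isg15 itself also rose. Their log2 differences at 6 months ran from 0.46 for Isg15 to 0.94 for Oas3.

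A neighbouring pair on chromosome 5 moved in opposite directions. Oasl2 (114896936 to 114912234) was higher in females by 0.64, 0.75 and 0.70 on the log2 scale at 2, 6 and 10 months, and Oasl1 (114923240 to 114937915) was lower by 0.53, 0.27 and 0.31, past the threshold at the 3 ages. Without M5 the differences at 2 months were 0.65 for Oasl2 and -0.55 for Oasl1. Both encode OAS-like proteins, and OASL1 is known to restrain translation of Irf7. At 2 months Oasl1 ran from 3.36 to 9.66 CPM in females (median 5.95) and from 5.06 to 18.3 CPM in males (median 8.41), and Oasl2 from 4.14 to 10.1 CPM in females (median 6.83) and from 2.89 to 7.67 CPM in males (median 4.10). Ranges overlapped for both genes. Rsad2, viperin, which blocks viral RNA synthesis, was lower in females by 0.40 at 6 months and had -0.23 and -0.13 at 2 and 10 months, short of the threshold. Bst2 and Mx2, a dynamin-like antiviral GTPase that the annotation lists as a polymorphic pseudogene, did not pass the threshold at any age.

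The immunoproteasome cuts proteins into peptides that TAP carries to MHC class I. Psmb10 (chromosome 8, 105935735 to 105938444) ranged at 6 months from 28.3 to 47.4 CPM in females (median 39.8) and from 18.6 to 27.9 CPM in males (median 21.8). At 10 months it ranged from 28.8 to 50.1 CPM in females (median 34.7) and from 15.3 to 24.99 CPM in males (median 19.1). As with Gbp3, every female library was above every male library at these ages. At 2 months females had 25.5 to 43.6 CPM and males 16.7 to 38.3 CPM, the latter in the library M5, with the next male at 28.0 CPM inside the females' range. Its log2 differences were 0.66 ± 0.05 (SE, and 0.69 without M5), 0.81 ± 0.04 and 0.91 ± 0.05 (edgeR adjusted p = 2.51e-15, 9.59e-25 and 6.14e-23). Gbp3 and Psmb10 were the 2 members of 40 whose sexes did not overlap, at both 6 and 10 months, where 0.702% and 0.626% of all genes had every female above every male. At 2 months, without the library M5, the count was 0 of 40 members and 0.715% of all genes.

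Psmb8 rose by 0.54, 0.59 and 0.64, and Psmb9, the remaining inducible subunit, by 0.18, 0.45 and 0.49. Of the TAP transporter's chains, Tap2 rose by 0.24, 0.40 and 0.40, and Tap1 by 0.24 at 6 months, with 0.08 and 0.18 at 2 and 10 months, short of the threshold. Psmb9 and Tap1 overlap on opposite strands, and whether the counting used strand is not given in the sources used here, so their reads may be shared.

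**Figure D2:**
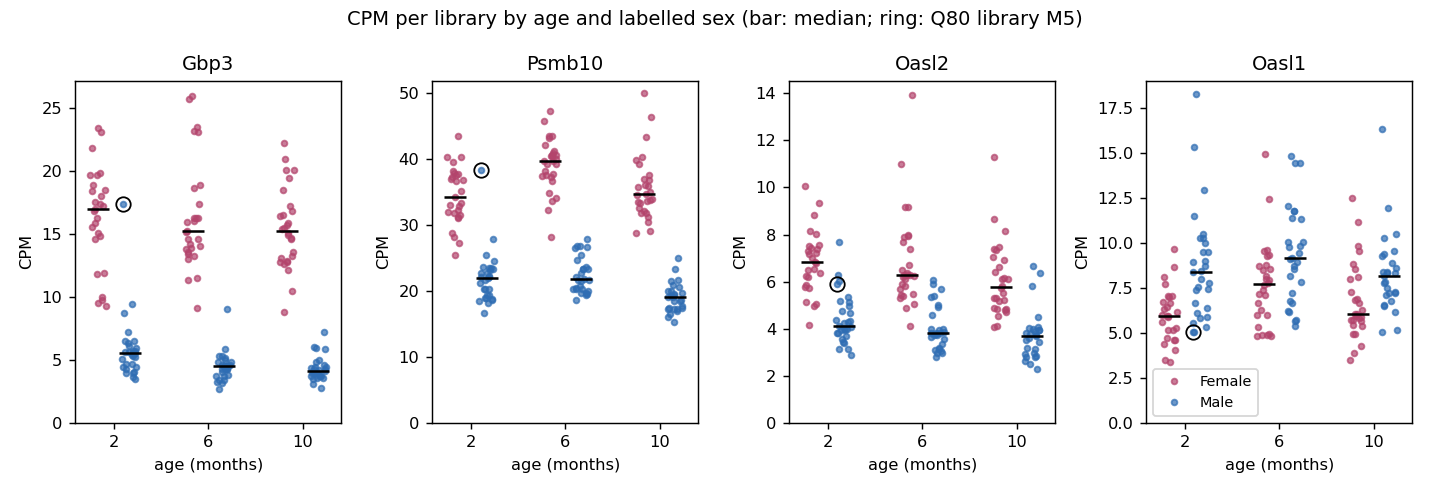
CPM of Gbp3, Psmb10, Oasl2 and Oasl1 (y axes) in each library by age (x axis) and labelled sex; bars are medians and the ring marks the Q80 library M5. Gbp3 and Psmb10 separate the sexes completely at 6 and 10 months, with M5 at 17.4 and 38.3 CPM among the females at 2 months, and Oasl1 is the gene with higher medians in males.

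Among sensors, Zbp1, which binds Z-form nucleic acid, rose by 1.03 (1.05 without M5), 1.14 and 1.39 in females at 2, 6 and 10 months. The RNA sensor Ddx58 (RIG-I) rose by 0.22 at 6 and 0.14 at 10 months and had 0.11 at 2 months, short of the threshold. Ifih1 (MDA5) did not pass it at any age. Dhx58 (LGP2), a regulator of both, was lower in females by 0.36 at 2 months, when its female mean was below its male mean in 7 of 7 genotypes, and had -0.07 and -0.12 later, not past the threshold. Of the transcription factors, Irf7 rose by 0.39, 0.59 and 0.42 and Irf1, the first responder to interferon-gamma, by 0.20, 0.24 and 0.30. Stat2 rose by 0.15 at 2 months and by 0.15 at 10 months, with 0.05 at 6 months not past the threshold. Irf9 did not pass it at any age.

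Other genes of the response were counted from lists. Of 54 further interferon-induced genes tested, 36 rose and 4 fell in females at 2 months, 38 and 3 at 6 months, and 39 and 1 at 10 months. Ifitm1, a membrane protein that blocks viral entry, was higher by 0.64, 0.70 and 0.62, and Uba7, the enzyme that activates ISG15, by 0.52, 0.81 and 0.78. Of 12 genes of MHC and peptide loading 11 rose at each age, among them Tapbp, tapasin, by 0.46, 0.54 and 0.58. Of 32 receptors, kinases and signalling genes 11, 13 and 12 rose and 6, 8 and 8 fell at 2, 6 and 10 months. Of all genes tested, 29.8%, 31.4% and 30% were higher and 27.7%, 29.5% and 27.2% lower in females at these ages. Ifngr1, a chain of the interferon-gamma receptor, rose by 0.38, 0.33 and 0.26, and Traf3, an adaptor in interferon induction, fell by 0.40, 0.58 and 0.55. Without M5 the 2-month counts of these 3 lists were the same.

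Markers of some immune cells moved with sex too. All 12 Kupffer cell and macrophage markers were higher in females at 2 and 6 months and 11 of 12 at 10 months. Their summed level at 6 months ran from 291 to 1290 CPM in females (median 542) and from 136 to 564 CPM in males (median 429). Of 11 T and NK cell markers 10 were higher and 1, Cd4, lower in females at each age, with a summed level at 6 months of 3.24 to 15.03 CPM in females (median 5.88) and 2.21 to 14.4 CPM in males (median 4.12). No marker of these 2 lists was at 0 over all libraries. Other lists varied. At 2 months without M5, 1 of 3 neutrophil and 0 of 2 plasmacytoid dendritic cell markers tested were higher in females. There 5 of 6 conventional dendritic cell, 5 of 7 B and plasma cell and 7 of 8 sinusoidal endothelial markers were higher, where 30% of all genes were. In such bulk RNA, fewer cells of a type and less RNA per cell cannot be told apart, and the part of these cells in the differences of the members was not tested.

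The sex difference was present in the wild type alone (4 females and 4 males an age), where 12, 25 and 17 members passed the threshold at 2, 6 and 10 months, all higher in females. Of all genes tested in these fits 5.62%, 8.51% and 6.33% were higher in females. With so few libraries the counts at 2 and 10 months were lower than in all genotypes by over 1.5 times. Gbp3 differed there by 1.85, 2.39 and 1.93. At 2 and 10 months, and in the wild type at 6 months, library names carry a second field, and 27 of its 28 values occur in 1 labelled sex only, so sex cannot be told apart from what the field stands for. The 48 knock-in libraries at 6 months have no such field. There the female mean of Gbp3 was above the male mean in 6 of 6 lines, by 1.48 to 2.01 on the log2 scale. Of the 40 members, 26 had the higher mean in females in 6 of 6 lines, and the share over all genes was not counted.

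Calls for a slope on repeat length were found at 6 months, and they were lost without the Q20 libraries, as given below. The slope of log2 level on repeat length in the 6 knock-in lines (per 100 repeats, with sex in the model) was negative and past the threshold for 6 members, where 3.8% of all genes tested passed in that direction. None rose. These were Oas3 (-0.76 ± 0.14 SE), Ifit2 (-0.47 ± 0.11), Oas2 (-0.45 ± 0.11), Parp14, an ADP-ribosyltransferase (-0.24 ± 0.06), Oasl2 (-0.32 ± 0.10) and Ifih1 (-0.20 ± 0.06). Of these, 5 of the 17 antiviral genes and 1 of the 4 sensors fell, and no transcription factor, GTPase or immunoproteasome gene passed. The median slope of the 40 members was -0.09, against 0.00 for all genes tested.

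Compared directly, 6 members were lower in Q175 than in Q20 at 6 months, where 6.45% of all genes tested were lower. Oas3 (chromosome 5, 120753098 to 120777661) had 1.02 to 6.55 CPM in the 8 Q20 libraries (median 2.31) and 0.559 to 1.89 CPM in the 8 Q175 libraries (median 1.25). The log2 difference was -1.19 ± 0.25 (SE, edgeR adjusted p = 0.00259). Ifit2 had 2.20 to 10.2 CPM in Q20 (median 4.63) and 1.49 to 4.48 CPM in Q175 (median 2.83), a difference of -0.83 ± 0.18 (edgeR adjusted p = 0.00281). Oasl2 had 3.55 to 13.9 CPM in Q20 (median 6.89) and 2.96 to 6.26 CPM in Q175 (median 5.19), a difference of -0.64 ± 0.15. Parp14 had 31.6 to 56.3 CPM in Q20 (median 42.6) and 20.3 to 41.9 CPM in Q175 (median 35.3), a difference of -0.40 ± 0.10. For all 4 genes the groups overlapped, and the highest library was the Q20 female F3. Oas2, with 3.92 to 13.5 CPM in Q20 (median 7.23) and 3.27 to 5.91 CPM in Q175 (median 4.82), differed by -0.62, and Rsad2 by -0.88.

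The intermediate alleles showed the same direction against the same 8 Q20 libraries, so these comparisons are not independent of each other. Q92 had 14 members lower, where 10.9% of all genes tested were lower, led by Oasl2 (-0.72), Ifit2 (-0.75), Usp18 (-0.59) and Oas3 (-0.91). Usp18 had 3.99 to 9.75 CPM in Q92 (median 6.54) against 4.03 to 18.4 CPM in Q20 (median 10.5). In Q92 Oasl2 had 2.81 to 5.88 CPM (median 4.98), Ifit2 1.75 to 4.90 CPM (median 2.88) and Oas3 0.810 to 2.44 CPM (median 1.57). All 4 overlapped with Q20. The other 10 were Oas1a, Parp14, Ifit3, Ifi44, Irf7, Isg15, Tap2, Rsad2, Dhx58 and Xaf1, from -0.27 for Tap2 to -0.79 for Rsad2. Q80 had 5 members lower, where 5.58% of all genes were: Oasl2 (-0.58), Ifi44 (-0.50), Oas1a (-0.52), Oas3 (-0.76) and Irf7 (-0.37). Ifi44 had 1.72 to 5.21 CPM in Q80 (median 2.66) and 1.47 to 8.38 CPM in Q20 (median 3.73), and Oas1a 2.355 to 4.37 CPM in Q80 (median 2.79) and 1.97 to 7.96 CPM in Q20 (median 3.94). Both overlapped between lines. Q111 had Parp14 alone (-0.40), with 25.7 to 40.6 CPM (median 33.2), where 0.697% of all genes were lower. Q140 had Oas2 (-0.88), Oas3 (-1.09), Ifit2 (-0.56) and Parp14 (-0.31) lower, where 3.29% of all genes were, and Tgtp1 (1.803) and Igtp (0.72) higher, where 2.69% of all genes were. Tgtp1 had 4.96 to 70.3 CPM in Q140 (median 7.37) and 1.96 to 11.1 CPM in Q20 (median 6.79), and Igtp 19.6 to 80.5 CPM (median 35.5) and 15.7 to 39.7 CPM (median 23.4), so both overlapped. Mean levels of Oas3 were 2.80 CPM ± 1.82 (SD, n = 8) in Q20 and 1.46 ± 0.939 in wild type, and between 1.23 and 1.58 CPM in the 5 longer alleles.

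**Figure D3:**
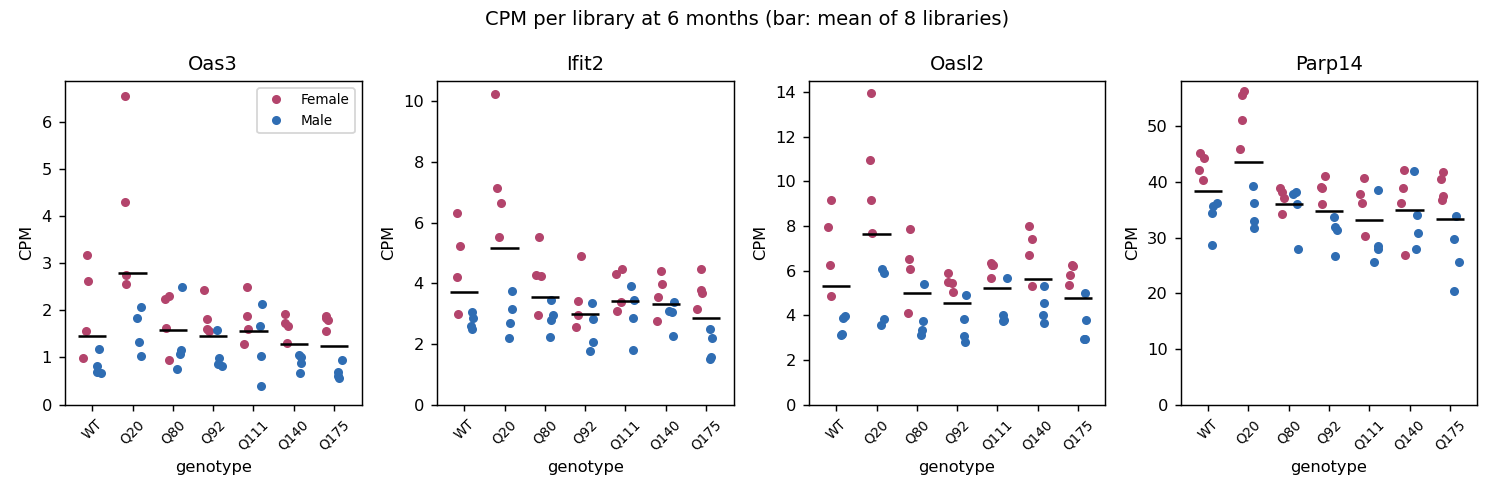
CPM of Oas3, Ifit2, Oasl2 and Parp14 (y axes) in each library at 6 months by genotype (x axis), coloured by labelled sex; bars are means of 8 libraries. The highest library in each panel is the Q20 female F3, with Oas3 at 6.55 CPM, and the ranges of the genotypes overlap.

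The calls of the slope and against Q20 were lost when the Q20 females F1, F3 and F4 were left out, as given below. Oas3 had 2.57, 6.55 and 4.30 CPM in the Q20 females F1, F3 and F4 and 2.74 CPM in F2, above 1.02 to 2.06 CPM in the 4 Q20 males. The 4 Q175 females had 1.56 to 1.89 CPM. Over the antiviral genes, the mean log2 deviation from the median female of that age was 0.406 in F2. It was 0.269, 0.774 and 0.429 in F1, F3 and F4. Ifit2 had 5.54, 6.63, 7.16 and 10.2 CPM in the Q20 females and 3.16 to 4.48 CPM in the Q175 females. The Q20 females F1, F3 and F4 had a summed Kupffer cell marker level of 1086 to 1290 CPM, above the 136 to 824 CPM of the other 53 libraries of that age, and a summed neutrophil marker level of 12.4 to 14.2 CPM against 1.69 to 12.5 CPM. Of 12 Kupffer markers 11 fell with the slope, where 3.8% of all genes did, and 11 were lower in Q175 than in Q20, where 6.45% were. Their part in the result was not tested. Without F1, F3 and F4 no member passed the threshold in the slope or against Q20 in Q80, Q92, Q111, Q140 or Q175. Oas3 then had a slope of -0.51 (edgeR adjusted p = 0.13) and Ifit2 of -0.24 (adjusted p = 0.36). The count of the slope was 4 in females alone, 0 in males alone, 3 without Q175 and 0 without Q20. These fits hold fewer libraries than the whole. Without F1, F3 and F4 the only Q20 female left is F2, so the lost calls cannot be told apart from the smaller size of the group. The slope did not differ between the sexes past the threshold for Oas3 (-0.07, edgeR adjusted p = 0.951), Ifit2 (-0.38, adjusted p = 0.481) or Parp14 (-0.09, adjusted p = 0.83).

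Q20 itself was higher than wild type at 6 months for 5 members: Tap2 (0.42), Oas3 (0.95), Oasl2 (0.54), Oas2 (0.56) and Ifit2 (0.45). Of all genes tested, 17.9% were higher in that comparison, and the 2 groups come from the 2 series of library names. Tap2 had 21.01 to 32.8 CPM in Q20 (median 28.6) and 14.7 to 26.97 CPM in wild type (median 21.98). Oas3 had 0.670 to 3.17 CPM in wild type (median 1.09), Oasl2 3.12 to 9.15 CPM (median 4.43) and Oas2 2.20 to 10.5 CPM (median 4.56). All 4 overlapped with Q20. Without F1, F3 and F4, 1 member passed, and without F3 alone 3 did. Of 12 Kupffer markers 10 were higher in Q20 there, and their part was not tested.

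Of other interferon-induced genes, 11 of 54 fell and 1 rose with the 6-month slope, where 3.8% of all genes tested fell and 2.47% rose. Among those that fell were Slfn5 (-0.71) and Slfn8 (-0.43), Schlafen genes, and Trim30a (-0.34). No gene of MHC and peptide loading passed. Of 32 signalling genes 6 fell, among them Cgas (listed as Mb21d1), the DNA sensor (-0.43), and Tlr7, an endosomal RNA sensor (-0.63). The slope of Usp18 differed between the sexes at 6 months, with females lower than males by 0.71 per 100 repeats on the log2 scale (edgeR adjusted p = 0.0422), where 0.226% of all genes passed. It lost the call without the 3 Q20 females (-0.54, edgeR adjusted p = 0.216) and without the Q140 male M3 (adjusted p = 0.0545).

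At 2 and 10 months repeat length left almost no trace in these genes by this test. None of the 40 members passed for the slope at 2 months (0.272% of all genes did). At an unadjusted p below 0.05 were 2 members and 15.6% of all genes. Irgm1 came closest (0.16 ± 0.06 SE, edgeR adjusted p = 0.183), followed by Ifi47 (0.27 ± 0.12). At 10 months none passed (0.595% of all genes), with 4 members and 10.6% of all genes at an unadjusted p below 0.05. Irf7 (0.25 ± 0.10, edgeR adjusted p = 0.341) and Ifit2 (0.23 ± 0.10) came closest. DESeq2 and limma also called 0 at both ages. Q175 against Q20 gave 0 members at 2 months (0.31% of all genes) and 0 at 10 months (1.26%), with 0 by DESeq2 and limma at both. At an unadjusted p below 0.05 were 0 members at 2 months (14.3% of all genes) and 7 at 10 months (13.6%). At 10 months Irf7 (0.49 ± 0.16, edgeR adjusted p = 0.11) and Ifi44 (0.49 ± 0.18) came closest, with a positive sign. Leaving out the Q20 male M4, whose members stood high, brought 1 member past the threshold at 10 months in the slope and in Q175 against Q20.

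The change of the slope from 2 to 10 months gave 0 members (1.05% of all genes), and 0 by DESeq2. At an unadjusted p below 0.05 it gave 4 members and 15.7% of all genes. Sex and slope did not interact past the threshold for any member at 2 months (0.0% of all genes) or 10 months (0.173%), and DESeq2 called 0 at both. Unadjusted p was below 0.05 for 0 members at 2 months (5.33% of all genes) and 1 at 10 months (15.6%). Q20 against wild type gave 0 members at 2 months (0.0% of all genes) and at 10 months (0.0127%), with 0 by DESeq2 and limma. At an unadjusted p below 0.05 were 1 member at 2 months (3.3% of all genes) and 0 at 10 months (2.31%). Among the intermediate alleles at 2 months, 0 members passed in Q80 (0.0991% of all genes), Q92 (0.0%), Q111 (0.0%) and Q140 (0.0%). In turn 4, 2, 1 and 14 members were at an unadjusted p below 0.05, where 9.06%, 7.13%, 5.97% and 13.3% of all genes were. In Q140, 37 of 40 members had a positive sign, with a median log2 difference of 0.20. DESeq2 called 1 member in Q92 and 0 in the others. At 10 months 0 passed in Q80 (0.0127%), Q111 (1.11%) and Q140 (0.00637%), and 0 by DESeq2. In these 0, 1 and 0 members were at an unadjusted p below 0.05, where 6.76%, 12.4% and 3.98% of all genes were. In Q92, Dhx58 alone rose, by 0.49 ± 0.13 (edgeR adjusted p = 0.0191), where 2.02% of all genes rose, from 5.09 to 9.59 CPM in Q20 (median 6.504) and 6.67 to 11.53 CPM in Q92 (median 9.24), which overlapped.

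Single libraries carried coordinated rises. The Q140 male M3 at 6 months was the highest of the 28 males of that age for 18 of 40 members, among them all 10 GTPases. For this library and those below, the share of all genes for which it was the highest is not given here. Tgtp1 stood at 70.3 CPM against at most 10.1 CPM in the other 27 males, Gbp2 at 15.3 against at most 4.68 CPM, Igtp at 80.5 against at most 27.8 CPM and Irgm2 at 108 against at most 63.9 CPM. Tap1, at 38.0 against at most 29.02 CPM, and Psmb9, at 19.96 against at most 16.2 CPM, were highest too. The antiviral genes were mixed. Of the 17, 4 were the highest of the males there, by small margins: Parp14 (42.02 against at most 39.2 CPM), Ifit1 (7.53 against 7.29), Ifit3b (3.38 against 3.12) and Ifi44 (3.24 against 2.93). Others lay near the median male, such as Oas3 (1.001 CPM, others' median 0.984), or below it, such as Oas2 (2.36, others' median 4.0). The mean log2 deviation from the median male of that age was 1.58 over the 10 GTPases and 0.22 over the 17 antiviral genes.

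Outside the members, some genes chosen after their values were seen were also high there. Cxcl9, a chemokine that interferon-gamma induces, had 42.5 CPM against at most 10.2 in the other males, and Ciita, the activator of MHC class II genes, 4.04 CPM against at most 1.87. Others were not the highest: Cxcl10, another interferon-induced gene, had 5.61 CPM against at most 7.78 in the other males. Nlrc5, a signalling gene, had 38.3 CPM against at most 41.35, and Ifngr1 16.8 against at most 18.54. Ifng itself had 7 counts. The T and NK cell markers summed to 14.4 CPM, the highest of the males of that age, against a male median of 4.12, and the Kupffer markers to 443 CPM, near the male median of 429. The part of these cells was not tested. Without this library neither Tgtp1 (0.68, edgeR adjusted p = 0.256) nor Igtp (0.29, adjusted p = 0.31) passed in Q140 against Q20, and 6 members were lower.

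The Q175 female F1 at 10 months showed another pattern. It was the highest of the 28 females of that age for 19 of 40 members, among them Oas1a at 12.8 against at most 6.66 CPM, Oas3 at 3.56 against at most 2.13 CPM, Oas2 at 12.1 against at most 8.26 CPM, and Irf7 at 75.1 against at most 43.0 CPM. Its mean deviation was 0.85 over the antiviral genes and 0.31 over the GTPases, the reverse order of the Q140 male. Cxcl9 had 6.95 CPM there, under the others' median of 8.12, and Cxcl10 4.40 CPM, above the others' median of 2.46. Its neutrophil markers summed to 22.3 CPM against a median of 4.39 over the females of that age, and its Kupffer markers to 839 CPM against a median of 520. The Q140 male M2 at 2 months and the Q20 male M4 at 10 months were high in both groups of genes, with mean deviations of 0.75 and 0.67 over the antiviral genes and 0.71 and 0.66 over the GTPases.

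**Figure D4:**
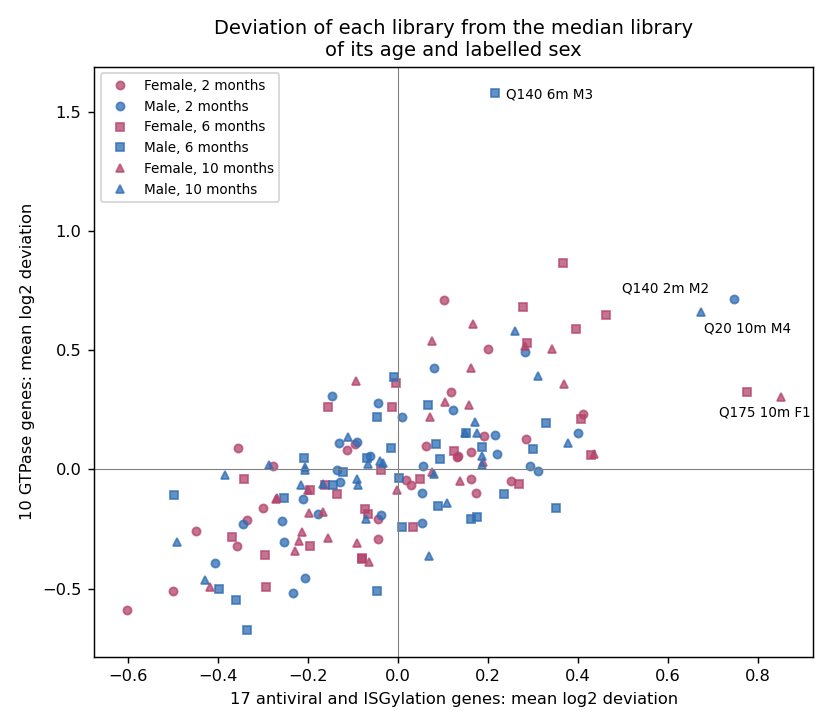
Mean log2 deviation of each library from the median library of its age and labelled sex, over 17 antiviral and ISGylation genes (x axis) and 10 GTPase genes (y axis). Most libraries lie along a common diagonal; the Q140 male M3 at 6 months sits at 1.58 on the y axis and 0.22 on the x axis, and the Q175 female F1 at 10 months at 0.31 and 0.85.

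With age, many members fell in the knock-in lines. Between 2 and 10 months, over 6 lines with genotype and sex in the model (48 and 47 libraries), 24 members fell, where 9.37% of all genes tested fell, and 1 rose, where 13.4% did. The median log2 change of the 40 members was -0.19 against 0.00 for all genes. Of 17 antiviral genes 14 fell, 6 of 10 GTPases, 2 of 4 sensors and 2 of 4 transcription factors. Of the immunoproteasome and transport genes none fell, and Tap2 rose by 0.11. No value of the second field of the library names is shared between ages, in these lines or in the wild type. Age therefore cannot be told apart from what the field stands for.

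Usp18 led the list. It ran from 5.49 to 15.7 CPM at 2 months (median 10.2) and from 3.32 to 14.9 CPM at 10 months (median 6.71), and its log2 change was -0.56 ± 0.07 (SE, edgeR adjusted p = 7.4e-11). Isg15, the ubiquitin-like protein that Usp18 removes, ran from 4.20 to 11.2 CPM at 2 months (median 7.01) and from 3.04 to 11.3 CPM at 10 months (median 4.78), a change of -0.45 ± 0.07 (edgeR adjusted p = 2.2e-07). Gbp4 had medians of 5.88 and 4.10 CPM within 3.34 to 10.7 and 1.76 to 8.81 CPM, a change of -0.43 ± 0.08. Oas2 had medians of 5.70 and 3.87 CPM within 2.61 to 9.16 and 2.26 to 12.1 CPM, a change of -0.42 ± 0.08. For all 4 genes the ages overlapped and the median was lower at 10 months.

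The other members called, in order of p up to 12 in all, were Ifit1 (-0.50), Stat2 (-0.23), Ifit3 (-0.39), Ifit3b (-0.42), Oas3 (-0.54), Irgm1 (-0.20), Parp14 (-0.18) and Xaf1, a pro-apoptotic factor (-0.25). Ifit3 and Ifit3b are near-identical copies, so the split of reads between them is uncertain. Of the 54 other interferon-induced genes 23 fell and 4 rose, where 9.37% and 13.4% of all genes did. Among the signalling genes Tyk2, a kinase of the type I receptor, fell by 0.14. Among 12 Kupffer markers 2 rose, where 13.4% of all genes did, and 10 did not pass in either direction. All 7 B and plasma cell markers and 5 of 6 neutrophil markers rose, and their part was not tested.

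In the wild type none of the 40 members passed between 2 and 10 months (1.62% of all genes did), and 0 by DESeq2 and limma. An unadjusted p below 0.05 was found for 5 members and 16.4% of all genes. This comparison had 8 libraries an age. Usp18 came closest, at -0.41 ± 0.13 (edgeR adjusted p = 0.1), followed by Igtp at -0.31 ± 0.14. The difference between knock-in lines and wild type was not tested. Between 2 and 6 months in the wild type 2 members rose, where 1.04% of all genes rose. Psmb9 ran from 8.79 to 14.98 CPM at 2 months (median 10.7) and from 9.62 to 22.97 CPM at 6 months (median 16.4), a change of 0.46 ± 0.10, and Zbp1 from 2.83 to 9.18 CPM (median 5.18) and from 3.52 to 15.3 CPM (median 6.81), a change of 0.58 ± 0.13. Both overlapped between ages, and at 10 months their changes from 2 months were 0.12 and 0.08, not past the threshold. The change from 2 to 6 months was not computed in the knock-in lines, whose library names differ between these ages.

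**Figure D5:**
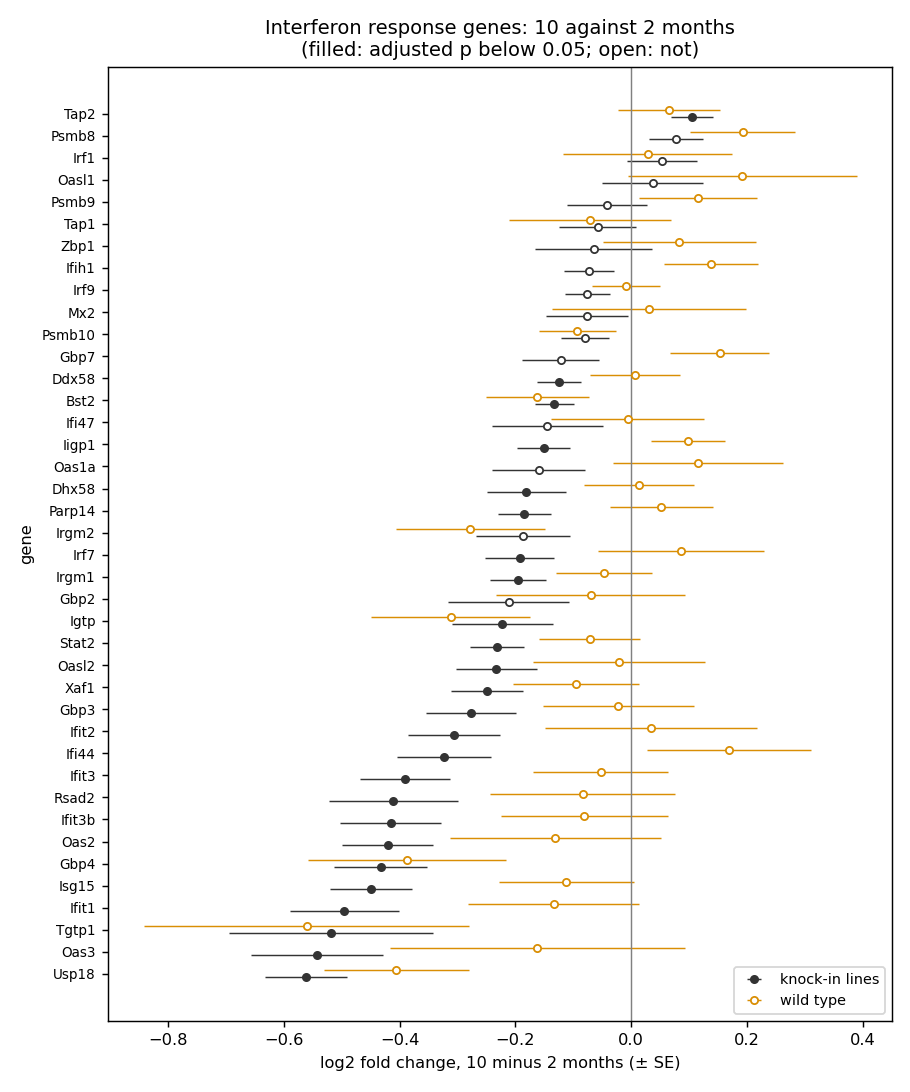
Log2 fold change from 2 to 10 months (x axis, ± SE) for the 40 members (y axis) in the knock-in lines (black, 95 libraries at the 2 ages) and the wild type (orange, 16 libraries). Filled points passed the threshold of 0.05 on the adjusted p and open points did not; 24 black points lie filled left of 0, from Usp18 at -0.56, and no orange point is filled.

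Within groups the members rose and fell together. On deviations of log2 CPM from the mean of each genotype, age and sex, over all libraries, which share their normalization, the median Pearson r of the 780 pairs was 0.42, and 769 pairs were positive. The median was 0.62 among the GTPases, 0.60 among the immunoproteasome and transport genes, 0.46 among the antiviral genes and 0.41 between antiviral genes and GTPases. The closest pairs were Ifit1 with Ifit3 (0.875), Ifit3 with Ifit3b (0.856), Irgm1 with Ifi47 (0.826) and Ifit1 with Rsad2 (0.819). Bst2 stood apart: its mean r with the other members was 0.13, the lowest, and it went against Gbp7 (-0.26). Zbp1 had the highest mean, 0.54.

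Of 10850 non-members with a mean of at least 1 on the log2 CPM scale, those whose deviations were most like the members' mean included Trim30a (r = 0.804), Rtp4 (0.792), Gm43302 (0.77), Samhd1, a nucleotide hydrolase that restricts retroviruses (0.766), Herc6, the ISG15 ligase of mouse (0.727), Lgals3bp (0.711), BC023105 (0.706), Ctss, cathepsin S (0.705), and Rnf213 (0.703). The median r of all these genes was -0.05.

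Interferons themselves were near the limit of detection. Of 17 interferon genes with a row, 11 had no count in any library. Ifnb1 had 2 counts and Ifna2 1 count over all libraries. Ifng had 283 counts in 113 libraries, with at most 9 in 1 library, the Q80 female F1 at 6 months. The receptors were measured well above this, with median levels of 33.0 CPM for Ifnar1 and 50.7 CPM for Ifnar2, the type I receptor chains, 17.2 CPM for Ifngr1 and 14.7 CPM for Ifngr2. The kinase Jak1 had 114 CPM. Ifnlr1, the interferon-lambda receptor chain, had 0.175 CPM.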

How the data were processed

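Liver polyA RNA was sequenced on an Illumina HiSeq, per the labels' protocols, and CASAVA 1.8.2 is named in the submitters' processing notes. No aligner, quantifier or genome build is given in the sources used here. Gene-level expected counts, which the authors estimated from reads and deposited unnormalized, are not whole in 14.1% of values. FPKM values, also deposited by the authors, are scaled by gene length and depth. Of 39179 IDs, 37607 matched the GENCODE M21 annotation (GRCm38), which gave names and positions.

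Expected counts were rounded and tested with edgeR 4.0.16 in R 4.3.3 (TMM, filterByExpr, quasi-likelihood F-test), adjusting p by Benjamini and Hochberg's method across every gene in a fit, at a threshold of 0.05. Within an age the model held genotype and labelled sex over 7 genotypes. Slopes used the 6 knock-in lines, and age comparisons used genotype, age and sex. SE is the log2 fold change divided by the square root of F. CPM used TMM over all libraries. Alternatives were DESeq2 1.42.0, limma 3.58.1 on log2(FPKM + 0.1), RLE normalization, no filter, only the 2 groups compared, a replicate block and left-out libraries. The tests were checked on simulated data. The members, gene lists, markers and tests were chosen with earlier results of these data known. The members called in a comparison are named in order of p, up to 12, with values by library or range for the first 4, and where none passed the first 2 are named. One gene outside the members is not reported here.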

Additional observations from a re-analysis of the deposited data

Results flagged for a closer look

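Mean log2 CPM over each role and over all members was examined in the 21 groups of genotype and age, 126 groups of values in all, and 5 had a library far from the others by Dixon's test, which chance gives in about 1 of 20. In Q175 at 10 months the female F1 was the highest: 4.41 over the sensors (next library 3.77), 5.69 over the transcription factors (5.12), 3.57 over the antiviral genes (2.61) and 4.36 over all members (3.6). In Q175 at 2 months the female F2 had 4.08 over all members, where the next library had 3.67. These groups hold both sexes. From the median female of its age, F2 deviated by 0.147 over all members. The Q175 females F1, F3 and F4 deviated by -0.497, -0.357 and -0.261. The slope of Usp18 on repeat length at 6 months differed between females and males by -0.707 per 100 repeats on the log2 scale, by a test of the interaction itself.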

How the results depend on the processing

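Of 323 counts of members called under an alternative, over 31 comparisons, 296 stayed within 1.5 times the reported count, and of 1393 fold changes of named members 1210 kept direction and call, 182 lost the call and 1 reversed; the causes were not tested. The reversed one was the 6-month slope of Oasl2, 0.06 without the Q20 libraries (edgeR adjusted p = 0.894). For the 6-month slope (6 members) the count was 0 in males alone, 3 without the Q175 libraries and 0 without the Q20 libraries, and at 10 months (0 members) it was 1 without the Q20 libraries. With F1, F3 and F4 of the Q20 females left out, it was 0 for the slope, Q175, Q80, Q92, Q111 and Q140 against Q20 and the slope by sex at 6 months, and 1 for Q20 against wild type. With only the 2 groups compared, Q175 against Q20 at 6 months gave 11 and Q20 against wild type 9, and limma on log2 FPKM gave 10 for the latter. Without a filter on low counts Q80 against Q20 at 6 months gave 1 and the slope by sex 0. DESeq2 gave 1 for Q92 at 2 months, 3 for Q111 at 6 months and 7 for wild type at 6 against 2 months. The sexes in the wild type alone gave 12 at 2 months and 17 at 10 months. The comparisons within the wild type alone, and without the Q140 male M3, were added after seeing the data.

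Leaving out 1 library at a time gave 4 to 8 members for the 6-month slope, 0 to 1 for the 10-month slope, 4 to 8 for Q175 against Q20 at 6 months, 0 to 1 at 10 months, and 3 to 7 for Q20 against wild type at 6 months. The 1 at 10 months came without the Q20 male M4 and the 3 without the Q20 female F3. Without the Q140 male M3 the slope by sex gave 0. With the replicate number as a replicate block, 31, 33 and 31 members were called by sex at 2, 6 and 10 months, 6 for the 6-month slope, for Q175 against Q20 and for Q20 against wild type, 24 for age in the knock-in lines, 1 for wild type at 6 against 2 months and 0 elsewhere. The labels tie a number to no shared animal or batch, and correlations of same-numbered libraries ran from -0.224 to 0.225, at most 2 of 8 pairs above 0.1 in a comparison.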
